A study of Mus musculus with 4 samples.

Results

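Toll-like receptors and the lipopolysaccharide partners Cd14 and Ly96 were followed across 4 expression arrays of mouse microglia, the resident macrophages of the brain. The set holds Tlr1, Tlr2, Tlr3, Tlr4, Tlr6, Tlr7, Tlr9, Tlr13, Cd14 and Ly96, taken by symbol. All 10 were found among the 17494 named genes kept, each with 1 probe set, and all 10 were among the 8747 called expressed, that is, with a mean level over the 4 arrays at or above the median of the named genes (7.19 log2 units). Whole brains of male mice of the C57BL/6J strain, with no genetic change stated, were the source of the microglia. Control mice were treated with PBS and mice of the allergy group with OVA (the usual abbreviation of ovalbumin, a model allergen), and a challenge through the nose preceded collection by 1 day. The mice were 30 (P30) or 70 (P70) postnatal days old. A pool of 4 samples made up each group, and each pool went on 1 array. The groups are therefore PBS at P30, OVA at P30, PBS at P70 and OVA at P70, with no replicates, no error and no test, and the number of arrays limits the precision. Levels are log2 of the deposited intensities, differences are log2 differences between 2 arrays, and a gene is counted as different from 1.5-fold.

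Toll-like receptors recognise conserved parts of microbes and some products of damaged cells. TLR1, TLR2, TLR4 and TLR6 sit at the cell surface, where TLR2 pairs with TLR1 or TLR6 to bind bacterial lipopeptides, and TLR4 binds lipopolysaccharide together with the protein of Ly96, to which CD14 hands it. TLR3, TLR7, TLR9 and TLR13 lie in endosomes and bind double-stranded RNA, single-stranded RNA, unmethylated DNA and bacterial ribosomal RNA. Most of them signal through the adaptor MyD88, TLR3 through TRIF, and TLR4 through both, toward NF-kB and interferon regulatory factors. In the brain, microglia are a main site of their expression.

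The labelled cell type was checked against 13 microglial markers, of which 12 were measured and all 12 lay above the floor of 7.19 on every array. Their summed levels at P30 were 19.06 (PBS) and 18.95 (OVA), and at P70 19.29 and 19.36. Neutrophil markers were high as well and varied more, with summed levels of 16.26 (PBS) and 14.88 (OVA) at P30 and of 19.77 and 19.54 at P70, for 12 of 12 genes. Monocyte markers (10 of 12 measured) summed to 11.25 and 11.32 at P30 and to 14.45 and 14.62 at P70, and markers of macrophages at the brain's borders (10 of 10) to 11.63 and 11.46 at P30 and to 12.05 and 13.42 at P70. No marker was listed at 0. Endothelial and astrocyte markers had 1 expressed gene each, Pecam1 and Slc1a3, the latter 0.70 higher in OVA at P70. Of 4 expressed T and NK cell markers and 4 expressed B and plasmacytoid dendritic cell markers, none differed by 1.5-fold in either OVA comparison. In bulk material, fewer cells of a type and less RNA per cell cannot be told apart.

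**Figure D1:**
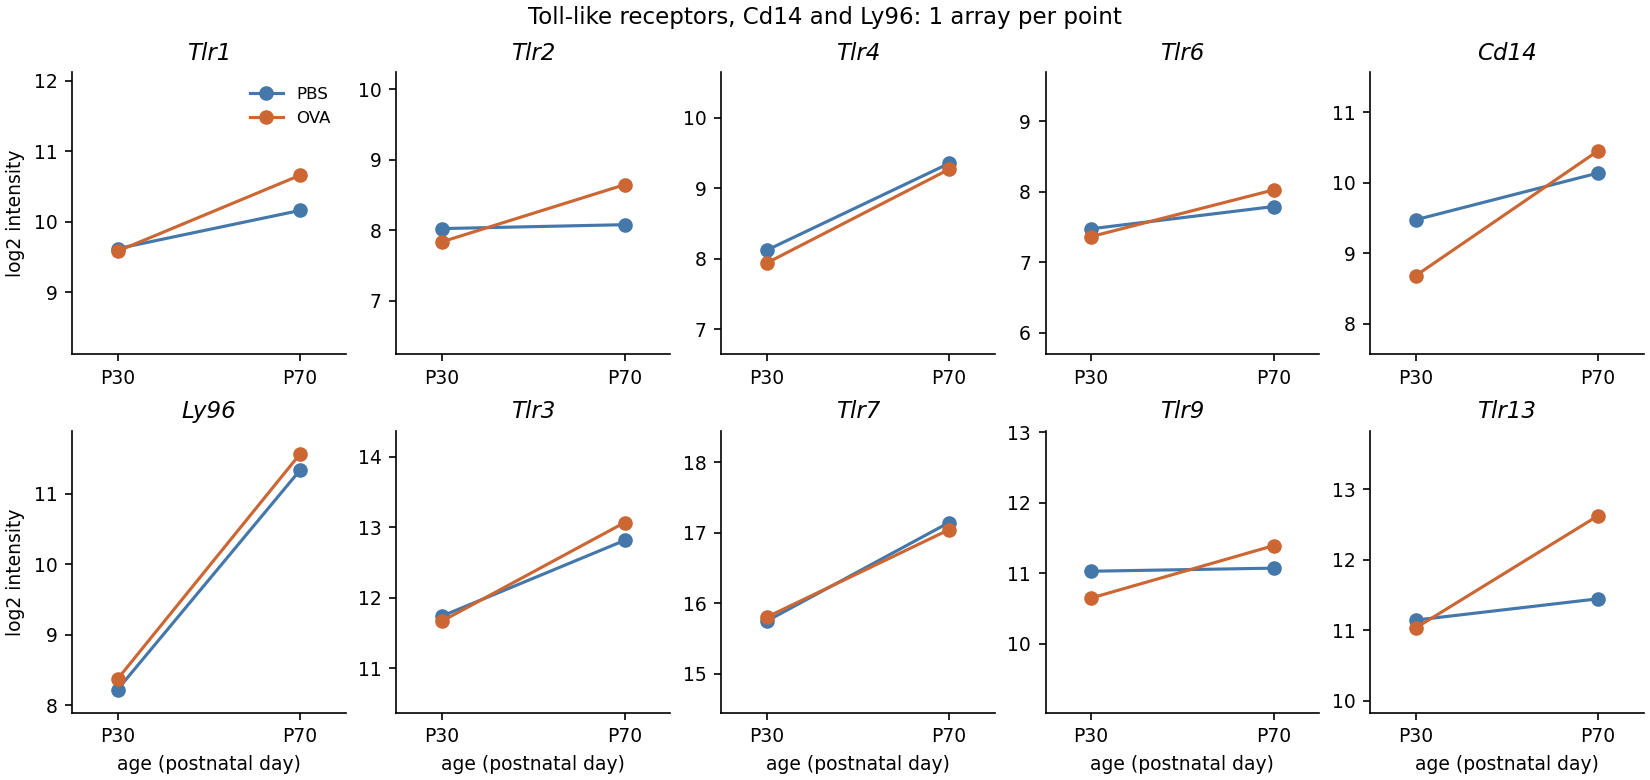
Level of each of the 10 genes (log2 intensity, y axis) at P30 and P70 (x axis) in PBS (blue) and OVA (orange), 1 array per point; each panel spans the same 4 log2 units around its own gene, and lines only join arrays of a treatment. Ly96 lies at 8.22 and 8.37 at P30 and 11.33 and 11.56 at P70, Tlr13 stands apart in OVA at P70 (12.63), and Cd14 is lowest in OVA at P30 (8.68).

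The comparison at P30 asked how these receptors differed in the allergy group at the younger age. Cd14 was the sole member at least 1.5-fold different, and it was lower in OVA. Across the 10 genes 8 differences were negative and 2 positive, with a median of -0.11 against -0.014 for all expressed genes. The 1 of 10 members past 1.5-fold compares with 1.54% of all expressed genes, 135 of 8747.

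Cd14, which encodes the co-receptor that passes lipopolysaccharide to TLR4, had P30 levels of 9.47 (PBS) and 8.68 (OVA) and P70 levels of 10.14 and 10.45. The OVA array at P30 was the lowest of the 4, 1.73-fold under its control. Only 29 expressed genes had a more negative difference at P30, which puts Cd14 (-0.79) at rank 30 from the bottom. Under the scalings tried, the difference lay between -0.81 and -0.77. Neutrophil markers were also lower in that OVA array, 7 of 12 by at least 1.5-fold with a median of -1.10, while none of 8 monocyte, 9 border macrophage or 12 microglial markers differed by that much. The part of the neutrophil markers in the Cd14 difference was not tested.

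The genes of CD14's protein partners stood closer to their controls. Tlr4, the lipopolysaccharide receptor, was at 8.12 in PBS and 7.94 in OVA, a difference of -0.18. Ly96 was at 8.22 and 8.37, the highest of the members' differences at this age (0.15). Among the receptors for lipopeptides, Tlr2 was at 8.02 and 7.83 (-0.19), Tlr1 at 9.62 and 9.58 (-0.04) and Tlr6 at 7.47 and 7.36 (-0.11). All 4 of these receptors were slightly lower in OVA as deposited, and the sign of Tlr1 turned after quantile normalization (0.01) and with the level correction (0.0049).

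Of the endosomal receptors, Tlr9, the sensor of unmethylated DNA, had the next largest difference at P30 after Cd14. It was at 11.03 in PBS and 10.65 in OVA, 1.30-fold lower, and 6.19% of expressed genes differed by more. Tlr3 was at 11.74 and 11.67, Tlr13 at 11.15 and 11.04, and Tlr7 at 15.74 and 15.80. Those 3 lay within 0.12 log2 units of their controls.

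**Figure D2:**
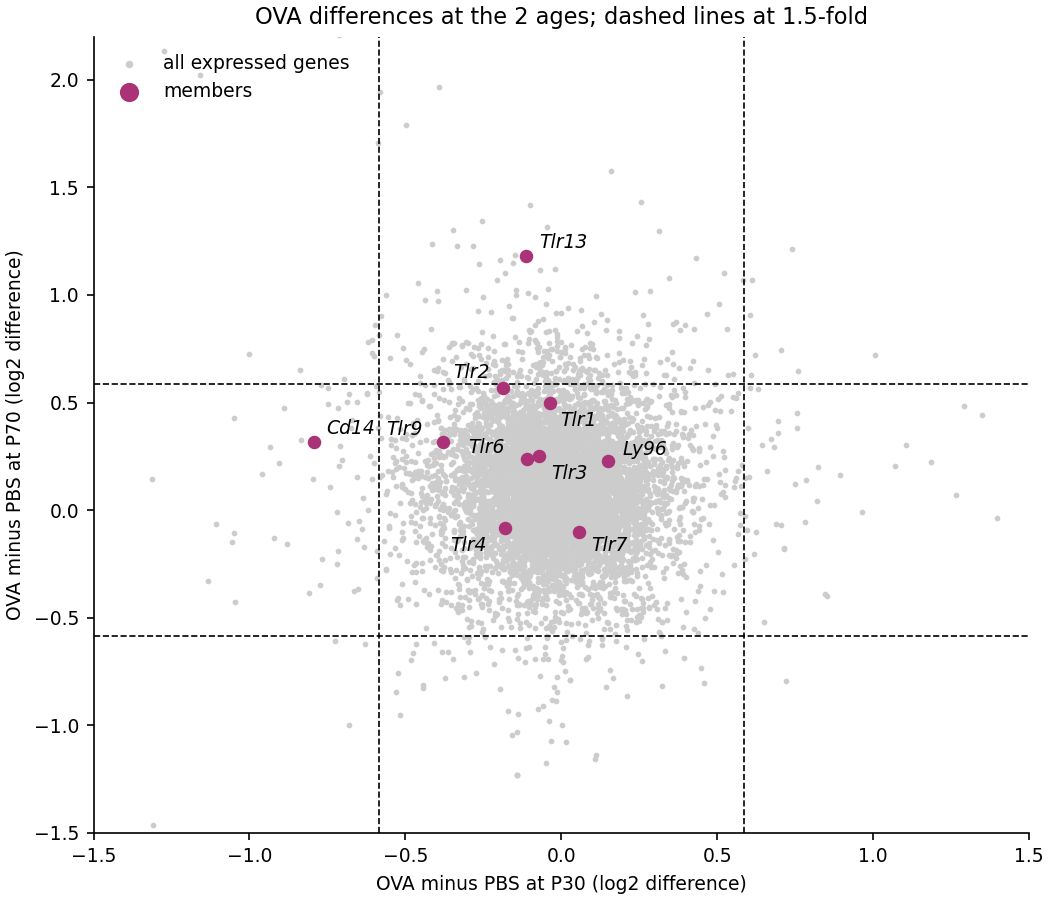
OVA minus PBS log2 difference at P30 (x axis) against that at P70 (y axis) for the 10 members (purple, named) and all expressed genes (grey); dashed lines mark 1.5-fold, and 20 genes lie outside the drawn range. Cd14 is the only member left of the lower P30 line (-0.79) and Tlr13 the only one above the upper P70 line (1.18), with Tlr2 just under it (0.57).

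The same comparison at P70 gave a different member. Tlr13, the endosomal sensor of bacterial ribosomal RNA, was 2.26-fold higher in OVA and the sole member past 1.5-fold, against a background of 5.18% of expressed genes (453 of 8747). As deposited, 8 of the 10 differences were positive, with a median of 0.28 against 0.091 for all expressed genes. After centring along the level, a lowess correction for shifts that depend on brightness, the members' median was 0.15. Among all expressed genes that differed at P70, 77.7% were higher in OVA as deposited, 53.8% after median centring, 52.4% with the correction along the level and 88.9% with quantile normalization.

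For Tlr13 the P30 arrays read 11.15 (PBS) and 11.04 (OVA), and the P70 arrays 11.45 (PBS) and 12.63 (OVA). The OVA array at P70 thus stood apart from 3 arrays that spanned 0.41 log2 units. Its P70 difference (1.18) was at rank 21 of the 8747 expressed genes and lay between 1.00 and 1.26 under the scalings tried. Border macrophage markers were higher in the same array, 6 of 9 expressed ones by at least 1.5-fold with a median of 1.30. Of 8 expressed monocyte markers 2 were higher, of 12 neutrophil markers 2 were lower, and of 12 microglial markers none differed by 1.5-fold. The part of the border macrophage and monocyte markers in the Tlr13 difference was not tested.

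Tlr8, an endosomal receptor outside the set, moved beside Tlr13. It was under the floor on 3 arrays, with P30 levels of 6.29 (PBS) and 5.97 (OVA) and a PBS level of 6.38 at P70, and above it in OVA at P70 (7.77). The size of its P70 difference, 1.39, is uncertain because its control lay under the floor. Tlr7 is its next protein-coding neighbour on the X chromosome, and differed by -0.10 at P70 as deposited and by 0.07 after quantile normalization. The other receptors outside the set, Tlr5 (-0.02), Tlr12 (-0.03) and Tlr11 (0.01, under the floor on all 4 arrays), were level with their controls at P70.

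The sequences upstream of Tlr13 and Tlr8 are shown because these 2 genes stood together in OVA at P70. Each is the 250 bases before an annotated start in the RefSeq promoters of GRCm38.p6, on the gene's strand. Capitals mark matches to GAGGAA, the core of the motif of PU.1 (a transcription factor that macrophages depend on). It was searched on both strands, as was TGANTCA, the AP-1 motif. Longer motifs of PU.1, NF-kB and the interferon-response factors were also searched and are not reported here, and the PU.1 core was kept for display after the matches had been seen.
Tlr13, chrX:106143025-106143274, plus strand: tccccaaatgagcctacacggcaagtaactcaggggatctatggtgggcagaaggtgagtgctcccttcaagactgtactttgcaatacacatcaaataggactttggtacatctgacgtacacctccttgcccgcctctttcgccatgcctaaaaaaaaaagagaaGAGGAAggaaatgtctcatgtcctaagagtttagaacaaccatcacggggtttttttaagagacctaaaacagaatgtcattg
Tlr8, chrX:167264330-167264579, minus strand: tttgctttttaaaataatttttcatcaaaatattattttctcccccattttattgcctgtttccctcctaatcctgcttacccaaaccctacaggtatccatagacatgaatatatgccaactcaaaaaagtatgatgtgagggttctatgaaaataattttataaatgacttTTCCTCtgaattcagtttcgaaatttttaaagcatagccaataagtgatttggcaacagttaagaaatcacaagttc

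The PU.1 core began 83 bases before the start in Tlr13 and, on the other strand, 77 bases before it in Tlr8. It was also found in Tlr9, 112 bases before the start, and at 1 of the 2 annotated starts of Tlr1, 23 bases before it. Of all 32851 promoter windows of this length, 23.3% held it. The AP-1 motif was found in Tlr9, 58 bases before the start, in no other gene looked up that had an entry, and in 6.75% of all windows. Of the 10 genes looked up, the 9 members other than Cd14 and Tlr8, 7 had a promoter entry, with 9 entries in all. A match describes letters and not binding.

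Among the lipopeptide receptors at P70, Tlr2 was at 8.08 in PBS and 8.64 in OVA, 1.48-fold higher and the member closest to the threshold without reaching it. Its partner Tlr1 was at 10.16 and 10.66, 1.41-fold higher. Tlr6, the other partner, was at 7.79 and 8.02 (0.24). In each of these genes the OVA array at P70 was the highest of the 4, as it was for Cd14, Ly96, Tlr3, Tlr9 and Tlr13. That array also had the highest median of all expressed genes (8.68). Tlr1 and Tlr6 are close paralogs and neighbours on chromosome 5, so signals of one may include the other and their differences are uncertain to that extent.

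The lipopolysaccharide genes were near their controls at P70. Cd14 was 1.24-fold higher in OVA, Ly96 stood at 11.33 in PBS and 11.56 in OVA, and Tlr4 at 9.35 and 9.27. Of the remaining endosomal receptors, Tlr9 was at 11.07 and 11.39 (0.32), Tlr3 at 12.81 and 13.07 (0.25) and Tlr7 at 17.14 and 17.04. None of these 6 genes reached 1.5-fold, and Tlr3 and Ly96 fell to 0.07 and 0.05 after centring along the level.

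The OVA differences of both ages were then set side by side for each gene. Between the ages, 4 members differed by at least 1.5-fold in that departure: Tlr13 (1.29), Cd14 (1.11), Tlr2 (0.75) and Tlr9 (0.70), each lower in OVA at P30 and higher at P70. By the same measure 7.83% of expressed genes passed upward. The members' median was 0.44 and that of all expressed genes 0.099. Tlr9 came under the threshold after median centring (0.58, just short of 1.5-fold) and after centring along the level (0.47), and the other 3 kept past it under each scaling.

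**Figure D3:**
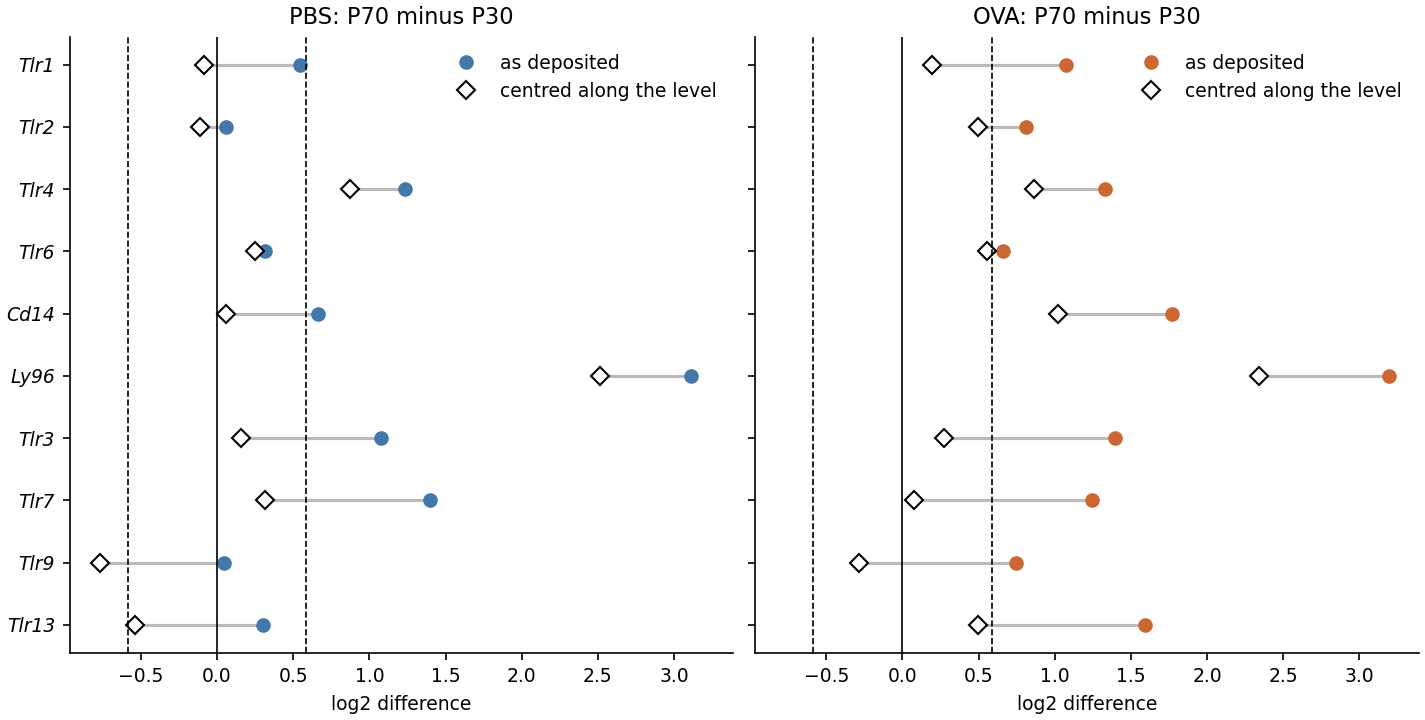
P70 minus P30 log2 difference of each member (x axis) in PBS (left) and OVA (right), as deposited (filled circles) and after centring along the level (open diamonds); dashed lines mark 1.5-fold. Ly96 stays above 2.3 in both treatments and both settings and Tlr4 above 0.85, whereas Tlr7 and Tlr3 move from above 1.0 to between 0.08 and 0.32.

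Age was compared within each treatment. Every member was higher at P70 as deposited. In PBS 5 of 10 were at least 1.5-fold higher, as were 29.1% of expressed genes (32.0% in either direction). In OVA 10 of 10 were, against 38.7% (43.0% in either direction). The 5 that passed in both treatments, against 26.2% of expressed genes, were Tlr4, Cd14, Ly96, Tlr3 and Tlr7. These shares were larger among bright genes, 49.4% in PBS and 63.2% in OVA in either direction for the 4374 brightest. With 1 array per group, a shift between arrays and a difference of age cannot be told apart. After centring along the level, 2 members were higher and 1 lower in PBS. Of the 8747 expressed genes, 1018 were then higher and 758 lower in PBS, 20.3% in either direction. In OVA 3 members were higher and none lower. There 1170 expressed genes were higher and 938 lower, 24.1% in either direction. Of the expressed genes that differed with age as deposited, 90.9% in PBS and 90.0% in OVA were higher at P70, and 57.3% and 55.5% after that centring; with median centring the shares were 67.0% and 58.1%.

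Ly96 had the largest age difference of the members by far. It went from 8.22 to 11.33 in PBS, 8.65-fold, and from 8.37 to 11.56 in OVA, 9.14-fold. Both P70 arrays stood well above both P30 arrays, and the P30 arrays differed by 0.15. Ly96 ranked 15 in PBS and 38 in OVA among the 8747 expressed genes. The differences were still 2.51 and 2.34 after centring along the level. Tlr4, whose protein works with that of Ly96, was 2.35-fold higher at P70 in PBS and 2.51-fold in OVA, at 0.87 in each after centring.

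Cd14 was 1.58-fold higher at P70 in PBS and 3.42-fold in OVA, where its P30 value was the low one. After centring along the level the PBS difference was 0.06 and the OVA difference 1.02. Tlr2, Tlr1 and Tlr6 differed by 0.06, 0.54 and 0.32 in PBS and by 0.81, 1.08 and 0.66 in OVA. None of these 3 passed 1.5-fold after centring, and Tlr1 and Tlr2 then had small negative values in PBS (-0.08 and -0.11).

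Tlr7 and Tlr3, the receptors for single- and double-stranded RNA, were 2.64-fold and 2.11-fold higher at P70 in PBS, and 2.37-fold and 2.63-fold in OVA. Centring along the level left Tlr7 at 0.32 and 0.08 and Tlr3 at 0.16 and 0.27, and quantile normalization gave 2.04 and 1.97 for Tlr7. Tlr13 differed by 0.30 in PBS and 1.59 in OVA, and by -0.54 and 0.50 after centring along the level. Tlr9 differed by 0.04 in PBS and 0.74 in OVA, and the same centring turned these to -0.77 and -0.29. The age differences of the endosomal receptors therefore depended on how arrays were scaled. So did those of Tlr1, Tlr2 and Tlr6, and that of Cd14 in PBS. Those of Ly96 and Tlr4 in both treatments, and that of Cd14 in OVA, kept their direction and call.

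Leukocyte markers differed with age in the same arrays. At P70, 10 of 12 neutrophil markers were at least 1.5-fold higher in each treatment, with medians of 2.33 in PBS and 3.65 in OVA. Of 8 expressed monocyte markers, 6 were higher in PBS and 7 in OVA, with medians of 1.79 and 2.12. After centring along the level the neutrophil medians were 1.685 and 2.69 and the monocyte medians 1.35 and 1.56. Of 9 expressed border macrophage markers, 4 were higher in PBS and 7 in OVA, with medians of 0.14 and 1.47. Of 4 expressed B and plasmacytoid dendritic cell markers 3 were higher in each treatment, and of 4 T and NK cell markers 1 was higher and 1 lower. Microglial markers had medians of 0.52 and 0.71 as deposited, which turned to -0.44 and -0.29 after centring along the level, with 1 of 12 higher and 5 lower in each treatment. Neutrophils and monocytes express several Toll-like receptors, Cd14 and Ly96. The part of these and the other listed cell types in the age differences was not tested.

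Genes with the most similar course over the 4 arrays were sought for the 3 members with the widest range, by the root mean square distance between profiles centred on their own means. For Ly96 these were Mrpl23-ps1 (0.065 log2 units), Cox7a2 (0.071) and Rpl27-ps1 (0.075), none of them on the pathway lists and all likewise far higher at P70. Cox7a2, for example, was at 11.71 (PBS) and 11.82 (OVA) at P30 and at 14.64 and 15.01 at P70. For Cd14 they were Eif4e (0.088), Vps35 (0.088) and Rpl39 (0.089), which were likewise lowest in OVA at P30. For Tlr13 they were Scimp (0.041), Ppp1r3d (0.059) and Phf11b (0.066), all highest in OVA at P70. Scimp encodes an adaptor of immune cell membranes, at 7.82, 7.80 and 8.22 on the other 3 arrays and 9.35 in OVA at P70. With 4 arrays a close match says little.

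**Figure D4:**
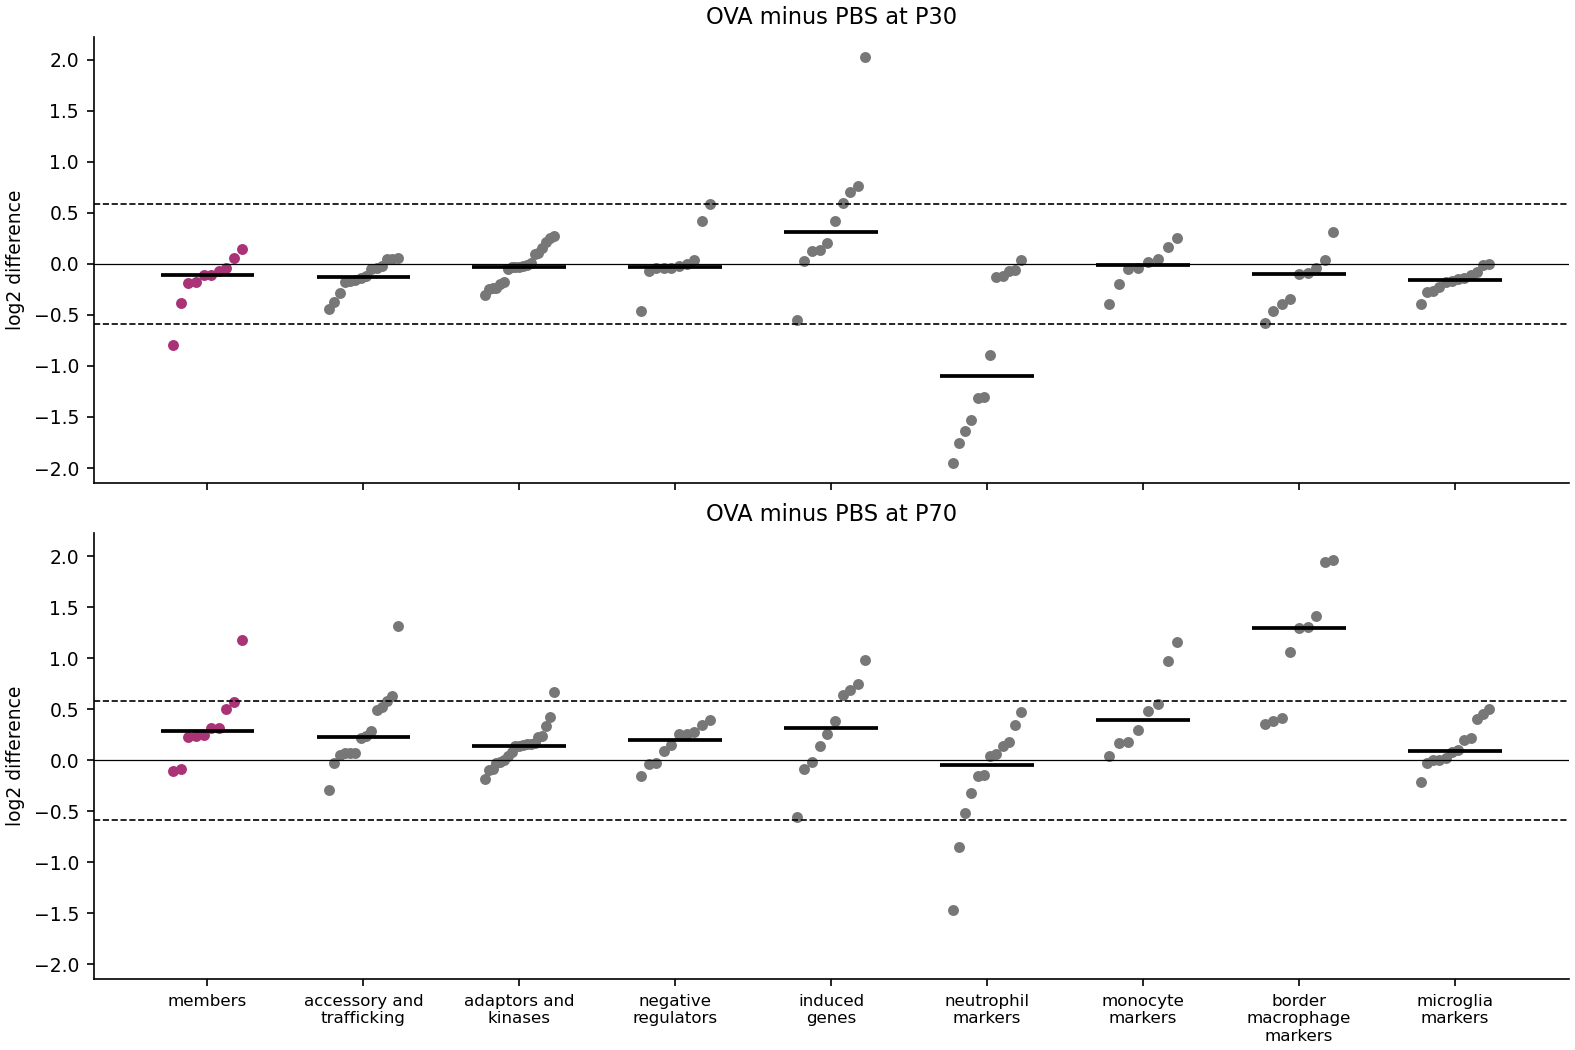
OVA minus PBS log2 differences (y axis) at P30 (top) and P70 (bottom) for the members (purple) and for expressed genes of the pathway and marker lists (grey); each point is a gene, bars are medians and dashed lines mark 1.5-fold. Neutrophil markers lie low at P30 (median -1.10), border macrophage markers high at P70 (1.30), and adaptors and kinases close to 0 at both ages.

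Of 19 expressed adaptors and kinases of the pathway none was 1.5-fold different with OVA at P30 (median -0.026), and Irf5 alone was at P70 (0.67, with a list median of 0.14). Among all expressed genes 1.54% passed at P30 and 5.18% at P70, so neither count sets this list apart. Irf5 encodes a transcription factor activated by these receptors, with P30 levels of 9.57 (PBS) and 9.39 (OVA) and P70 levels of 9.32 and 9.99. It came under the threshold after median centring (0.57) and after centring along the level (0.52). Myd88, the main adaptor, differed by -0.25 at P30 and -0.10 at P70, and by 0.81 and 0.96 with age, which came under the threshold after median centring (0.51 and 0.54). Ube2n and Peli1, both of which act in ubiquitin signalling, had the other large age differences of this list, 1.33 and 1.08 in PBS and 0.96 and 1.45 in OVA. After centring along the level Ube2n kept its call in PBS (0.67) and lost it in OVA (0.08), where median centring also took it under the threshold (0.55). Peli1 came under the threshold in both after centring along the level (0.42 in PBS and 0.58 in OVA). Tab2, an adaptor of the kinase TAK1, differed by -0.05 and 0.24 with OVA.

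Among 14 expressed accessory and trafficking genes, none differed by 1.5-fold with OVA at P30 and 2 were higher at P70. Of all expressed genes, 1.54% and 5.18% passed at these ages. Cd36, a scavenger receptor that assists TLR2 with TLR6, went from 6.88 in PBS to 8.19 in OVA at P70, from under the floor, so that its difference of 1.32 is uncertain in size. Ap3b1, a subunit of the complex that sorts endosomal receptors, was 0.63 higher and came under the threshold after median centring (0.53) and after centring along the level (0.48). Cd180 and Ly86 encode a receptor complex related to TLR4 and Ly96. Cd180 had P30 levels of 12.21 (PBS) and 11.77 (OVA) and P70 levels of 13.10 and 13.68, short of 1.5-fold at both ages as deposited and past it at P70 after quantile normalization (0.66), while Ly86 differed by -0.12 and -0.29. The age differences of Ly86 were 1.07 in PBS and 0.89 in OVA and turned negative after centring along the level (-0.03 and -0.27). Hsp90b1, the chaperone that folds Toll-like receptors, and Lgmn, a protease that cleaves endosomal ones, differed by 0.07 each at P70, and Unc93b1, which carries endosomal receptors to their site, by 0.21; Unc93b1 was looked up after its values were seen.

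Of 10 expressed negative regulators, Nfkbia, the inhibitor of NF-kB, was the single gene past 1.5-fold in an OVA comparison. It stood 0.59 above its control level of 9.41 at P30, where 1.54% of all expressed genes passed. At P70 it stood at 10.17 and 10.14. Tnfaip3, the deubiquitinase that ends NF-kB signalling, differed by 0.42 and 0.28. Irak3, a kinase-like inhibitor of the receptor complex, differed by -0.07 and 0.25, Cyld by -0.04 and 0.26, and the phosphatase gene Inpp5d by -0.04 and 0.39. With age, 2 of 10 were past 1.5-fold in each treatment, all higher, against 29.1% of expressed genes in PBS and 38.7% in OVA. These were Nfkbia (0.75) and Cyld (0.66) in PBS, and Cyld (0.96) and Irak3 (0.66) in OVA. Tnfaip3 differed with age by -0.28 and -0.43 and Inpp5d by -0.47 and -0.04. After median centring none of the list was higher and 2 were lower in each treatment.

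The last list held genes known to be induced by these receptors. Of 10 expressed ones, 4 were at least 1.5-fold higher at P30 and none lower, against 1.54% of all expressed genes in either direction. These 4 were Ccl3 (2.03), Il1a (0.76), Ccl4 (0.71) and Nfkbiz (0.60, just past the threshold), with a list median of 0.32. At P70 there were again 4, against 5.18% of all expressed genes in either direction. They were Ccl3 (0.99), Ccl4 (0.75), Ccl2 (0.69) and Il1a (0.64), also with a list median of 0.32. After centring along the level Ccl2 (0.56) and Il1a (0.46) came under the threshold at P70, and Il1a also after median centring (0.54). Il6 was lower in OVA at P70 (-0.55), and past 1.5-fold lower after median centring (-0.66) and centring along the level (-0.68). The control of Ccl4 lay under the floor at P30 (6.88) and P70 (7.12), so the size of its differences is uncertain. These chemokine and interleukin genes were put on the list with their OVA differences already known, so their counts cannot be read against those shares. Il6 was 2.49 higher at P70 in PBS and 1.79 in OVA, from a P30 level under the floor (6.79 and 6.93). Il1b was higher with age by 1.07 and 1.08 and Cd80, a co-stimulatory molecule, by 1.08 and 1.55. Cd80 came under the threshold in PBS after centring along the level (0.44). Ccl3 went the other way with age, by -1.02 in PBS and -2.06 in OVA. It was the sole gene of the list past 1.5-fold lower with age, and stayed past it under each scaling. The other 13 listed genes, such as Nos2 and Ptgs2, had a mean level under the floor.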

How the data were processed

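Microglial RNA of 4 groups was measured on 4 arrays, 1 per group. The authors deposited normalized intensities, 1 linear value for each probe set of an array. RMA and Affymetrix Expression Console 1.4.1 are named in the submitters' processing notes; how arrays were scaled to each other and the genome build are not given in the sources used here. The highest value on an array was between 19.74 and 19.93 log2 units, and every member lay at least 2.79 units under that of its array.

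From these, log2 values were computed with no further normalization. Names came from the 30604 of 65956 probe sets with 1 gene symbol (2146 had several, 33206 none here), 827 of them updated through Entrez ID with the RefSeq table of GRCm38.p6. Left out by name were 12874 probe sets of predicted genes, small RNAs, chemosensory receptors and immune receptor segments, and the probe set with the highest mean stood for a gene. With 1 array per group no model could be fitted, so genes were counted at 1.5-fold. The code for differences and scalings was checked on simulated data, which says nothing about error between samples. Named pathway genes were those past 1.5-fold in an OVA comparison, the 3 largest in each age comparison and the 2 of highest level per list. Members, lists and rules were chosen with earlier results of these data known. Alternatives covered scaling, the filter on dim genes, the probe set per gene, an offset of 16 before log2 and a 2-fold threshold. Work used Python 3.11.15, pandas 2.3.3 and statsmodels 0.14.6 (lowess fraction 0.4).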

Additional observations from a re-analysis of the deposited data

Results flagged for a closer look

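Among the members, the other receptors of the family and the expressed pathway genes, 12 genes met both of these conditions as deposited: the OVA array lay on opposite sides of its control at the 2 ages and the OVA differences were at least 1.5-fold apart. The share of all expressed genes that met both was not computed, so the count does not set these genes apart. Without the condition on sides, 7.83% of expressed genes passed upward. With 1 array per group the difference between the OVA differences was not tested. Taken as the OVA difference at P70 less that at P30, it was 1.29 for Tlr13, 1.11 for Cd14, 0.75 for Tlr2 and 0.70 for Tlr9 among the members. Outside them it was 1.71 for Tlr8 and 1.36 for Cd36, both with values under the floor, 1.02 for Cd180, 0.85 for Irf5, 0.78 for Pld4 and 0.61 for Usp4. The course was the opposite, higher in OVA at P30 and lower at P70, in 2 genes, Il6 (-0.69, with P30 levels under the floor) and Nfkbia (-0.62). At P70 Nfkbia differed by -0.03 and changed sign after quantile normalization (0.01).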

How the results depend on the processing

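No paired analysis was possible because each group has 1 array and the groups share a single replicate number. With no spread between replicates, a median or a member's difference was taken as moved when it shifted by 0.1 log2 units or crossed 1.5-fold. Median centring of each array gave a members' median of 0.18 for OVA minus PBS at P70, 0.30 and 0.87 for age in PBS and OVA, and 0.32 for the difference between the OVA differences. Centring along the level gave 0.15, 0.11, 0.50 and 0.32 in that order, with 3 members counted as different with age in PBS and 3 in OVA. Quantile normalization gave age medians of 0.45 in PBS and 1.39 in OVA. The stricter filter, which left 8 members, gave 0.87 for age in PBS. At 2-fold, 0 members were counted at P30, where no replicated test by any tool was possible. One called member reversed: Tlr9 in the age comparison of OVA, -0.29 after centring along the level. Of 340 alternative values of single members, 253 stayed, 86 moved and 1 reversed. Most of the 253 were fixed in advance, so that count overstates how stable the members' differences were. Neither filter on dim genes could change a member's difference, nor could the mean of all probe sets, since each member has 1. Under the alternatives that could change them, the calls of Cd14 at P30 and Tlr13 at P70 held at 1.5-fold. These were median centring, quantile normalization, centring along the level and the offset of 16. The stricter filter left out Tlr6 and Tlr2, whose mean levels (7.66 and 8.14) were the lowest of the members; how far background limits each member's difference was not tested.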
